A study of Mus musculus with 6 samples.

Results

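Single mouse embryonic stem cells of the R1 line fell into cells with a high and cells with a low share of transcripts from chromosome 8, and the transcriptomes of these classes were set against each other within each culture. Of 564 R1 wells, 427 held 10000 or more counts of mouse genes and were used as cells; the series has 1128 wells and 905 such cells. For each cell, the share of counts in chromosome 8 genes was expressed as log2 against 5.65%, the mean of the 6 library shares of the series. A cell above 0 was called high (344 cells) and any other cell low (83 cells). The members were thus chosen by their chromosome 8 counts. Mitochondrial genes and the ribosomal RNA precursor Rn45s were kept out of the share.

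RNA was counted by SORT-seq, which runs CEL-Seq2 on sorted cells in plates and in which each transcript 3' end carries a molecular identifier (UMI), so that copies made by amplification are counted once. Both lines of the study, R1 and IB10, are long-established lines and contributed 1 library per culture. All culture media were serum-free and contained LIF, the cytokine that sustains self-renewal. R1 rosette_LIM cells, at passage 28, had 6 passages with 2 µM IWP2, which blocks WNT secretion, and 0.1 µM PD325901, a MEK inhibitor. R1 primed_4d cells, at passage 24, had 4 days with 2 µM IWP2, 20 ng/ml Activin A and 12 ng/ml FGF2. R1 LIF_2i cells, also at passage 24, had 3 µM CHIR99021, a GSK3 inhibitor that activates WNT signalling, and 0.1 µM PD325901. The 3 IB10 libraries, at passages 28 and 33, had the same agents, with 5 passages in rosette_LIM, and served here to ask whether a difference also appeared in another line. No genotype beyond the line, no clone and no karyotype is given in the labels.

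Mouse embryonic stem cells in long culture often become mosaic for an extra chromosome 8, and cells that carry it can overgrow the culture. An extra copy usually raises transcripts of most genes on the chromosome in proportion to the copies, while single genes can be held back by feedback. In other systems an added chromosome has been reported to go with a slower cell cycle, altered metabolism and stress of protein folding, so gene lists for these processes were examined off the chromosome.

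The chromosome 8 share of R1 cells was bimodal in every culture. In LIF_2i, 114 of 157 cells were high (72.6%, exact 95% binomial interval 64.9% to 79.4%). In rosette_LIM, 144 of 172 cells were high (83.7%, 77.3% to 88.9%). In primed_4d, 86 of 98 cells were high (87.8%, 79.6% to 93.5%). With 1 library per culture these shares allow no test between cultures, and the intervals cover counting error only. In the IB10 line 94 of 478 cells were high.

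The median log2 share was 0.24 in high and −0.21 in low cells of LIF_2i. It was 0.20 in high and −0.23 in low cells of rosette_LIM. It was 0.21 in high and −0.26 in low cells of primed_4d. In plain shares the typical high cell thus drew between 6.48% and 6.68% of its counts from chromosome 8, and the typical low cell between 4.73% and 4.89%. Only 21 of the 427 cells lay within 0.1 of the cut. The 3 high cells nearest to it had log2 shares of 0.03, 0.04 and 0.04, and the 3 nearest low cells had −0.0002, −0.02 and −0.06. Because the shares defined the classes, these values describe the cells and support nothing by themselves.

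**Figure D1:**
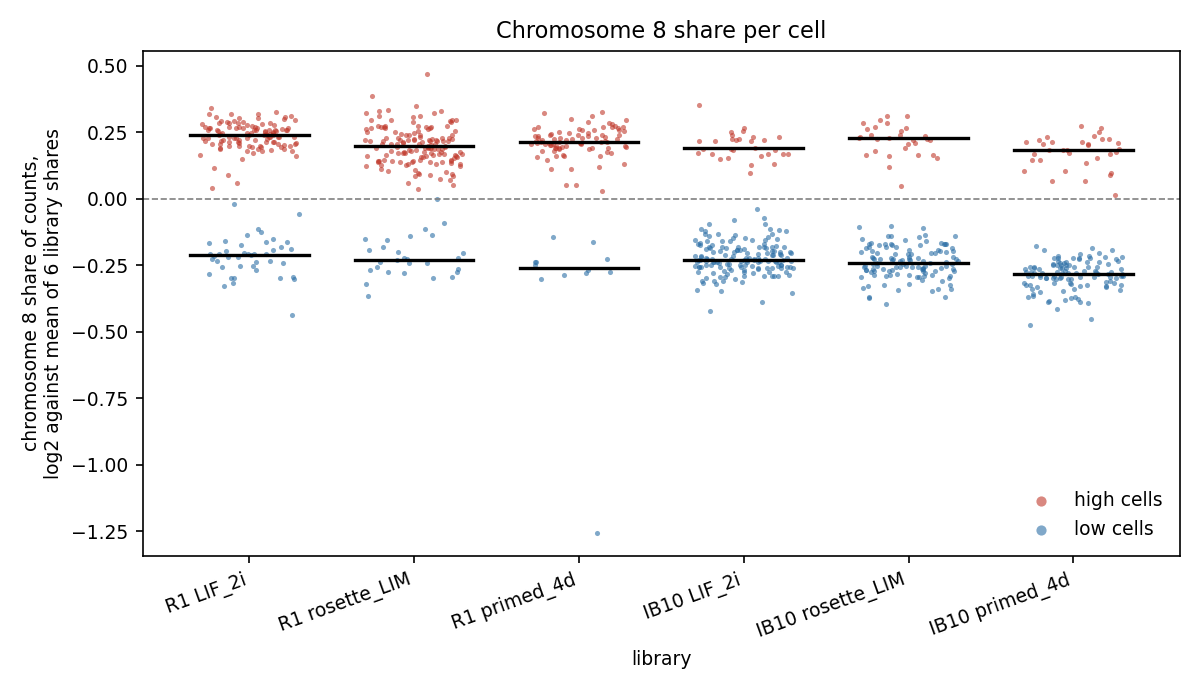
Share of counts from chromosome 8 in each cell (log2 against the mean of the 6 library shares) by library, with high cells in red, low cells in blue, class medians as black bars and the cut at 0 dashed. In all 6 libraries the cells form an upper and a lower band, with most R1 cells in the upper and most IB10 cells in the lower band. One R1 primed_4d cell lies far below, at −1.25.

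High and low R1 cells had like depth. The median count was 35816 in high and 35954 in low cells of LIF_2i, 32089 and 34896 in high and low cells of rosette_LIM, and 45885 and 49191 in high and low cells of primed_4d (mean log2 difference −0.08 ± 0.06 SD, n = 3; exact sign-flip permutation p = 0.25, the smallest that 3 libraries allow). Genes detected after thinning each cell to 10000 counts differed by −0.01 ± 0.02 (log2, SD, n = 3). The ERCC spike-in share differed by 0.13 ± 0.16 (log2, SD, n = 3; exact sign-flip permutation p = 0.5). By library the difference was 0.08 in LIF_2i, −0.01 in rosette_LIM and 0.31 in primed_4d. In primed_4d the median ERCC share was 1.40% in high and 1.13% in low cells. All 188 well numbers recur in each R1 library because they name positions on the plate, and no pair of wells held identical values. In 3 high wells of LIF_2i there were over 100000 counts, up to 590866. The R1 test of genes off chromosome 8 is also given without them, while all other values of LIF_2i high cells include them.

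Among 4 genes looked at for a difference between the lines, some set the R1 cells of both classes apart from IB10. Mid1, an X-linked gene for a microtubule-associated ubiquitin ligase, lay between 8.74 and 39.7 CPM in high and between 19.05 and 54.0 CPM in low R1 cells, against 136 to 284 CPM in the IB10 classes. Trub1, a pseudouridine synthase gene, lay between 11.3 and 24.5 CPM in high and 10.6 and 19.2 CPM in low R1 cells, against 26.6 to 49.1 CPM in the IB10 classes. For Ccnd2 and Efhc2 the range of R1 values, in high as in low cells, overlapped that of the IB10 classes. For Efhc2 the overlap was with IB10 high cells only (0.94 to 7.33 CPM), as IB10 low cells had 14.0 to 19.1 CPM. CPM in this paragraph scale a count to all nuclear-gene counts of its class and library, chromosome 8 included and Rn45s left out. In later paragraphs CPM scale it to the nuclear-gene counts off chromosome 8, with the scaling factors of the edgeR fit. Markers of pluripotent cells off chromosome 8 (Pou5f1, Sox2, Nanog and Sall4) summed to 1714 CPM in high and 1767 CPM in low cells of LIF_2i, to 2043 and 2017 CPM in high and low cells of rosette_LIM, and to 1500 and 1452 CPM in high and low cells of primed_4d. The 6 marker lists of other cell types summed to 7.21 to 54.7 CPM in high and 4.23 to 31.4 CPM in low cells. Both upper values are of the neuroectoderm list in primed_4d, which keeps the chromosome 8 gene Sox1 (34.1 CPM in high and 12.2 CPM in low cells). Sox1 had 5.46 and 6.35 CPM in high and low cells of LIF_2i, and 11.3 and 12.4 CPM in high and low cells of rosette_LIM. Both classes thus expressed the pluripotency markers at like summed levels and those of other cell types at low levels. Nanog by itself was higher in high than in low cells of LIF_2i (37.8 against 22.6 CPM) and rosette_LIM (37.8 against 29.3 CPM). It was lower in high cells of primed_4d (21.7 against 24.4 CPM). Low cells held 32, 26 and 14 counts of Nanog in LIF_2i, rosette_LIM and primed_4d.

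An independent reading of the chromosome came from genes that had no part in the class. When every second chromosome 8 row set the class, the remaining 488 rows were higher in high cells by log2 0.47 in LIF_2i, 0.42 in rosette_LIM and 0.28 in primed_4d (mean 0.39 ± 0.10 SD, n = 3 libraries), a ratio of 1.31. With the sets exchanged, the values were 0.46, 0.47 and 0.46. For scale, 3 copies in place of 2 would give 0.585. The sets put 404 of 427 cells in the same class, with the fewest in primed_4d, where 82 of 98 did. Across cells, the log2 shares of the sets correlated with Pearson's r of 0.92 in LIF_2i, 0.84 in rosette_LIM and 0.83 in primed_4d, where both readings share a cell's depth and library. DNA copy number was not measured.

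The excess ran along the whole chromosome. The 977 chromosome 8 rows with a position (GRCm38, RefSeq) were cut into 10 bins in gene order, from Insr at chr8:3150922-3279649 near one end to 129234046 at the other, and each bin was read in classes set without it. Bin means over the 3 libraries ran between 0.39 and 0.55, and all 30 library values were above 0 (0.30 to 0.61). In no bin did high cells lack the excess. By contrast, 190 bins of the other autosomes and the X chromosome gave 570 library values, of which 552 (96.8%) were within 0.2 of 0, and none of these bins passed 0.2 in the same direction in all 3 libraries.

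**Figure D2:**
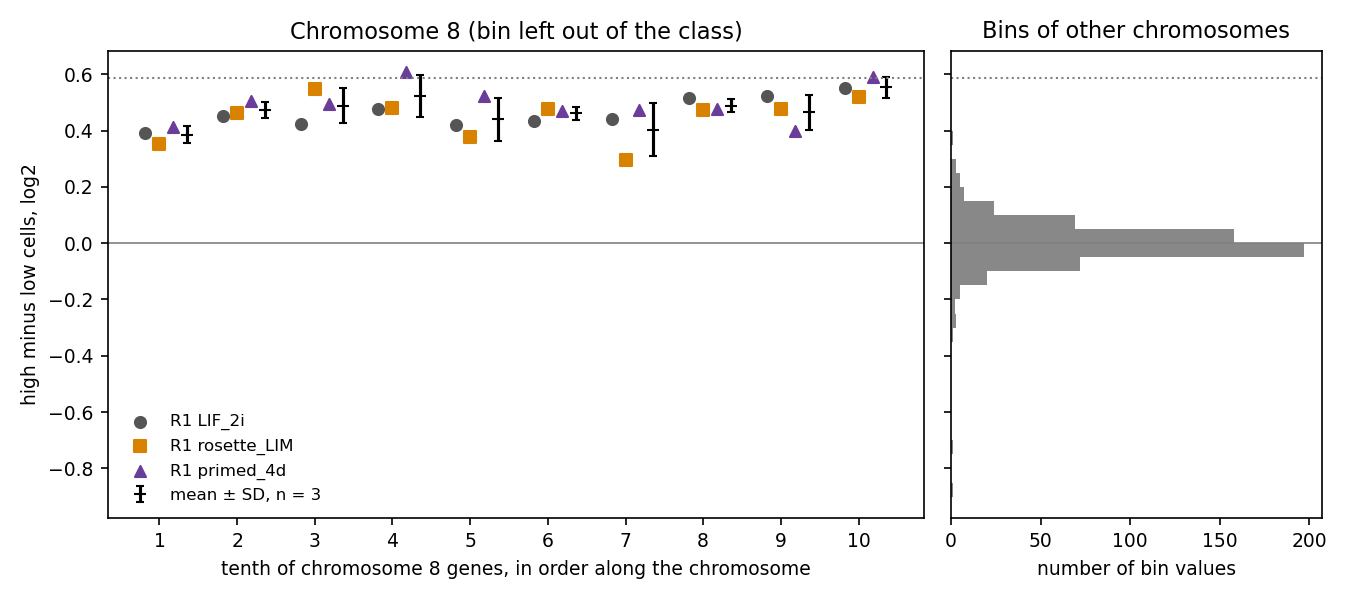
Left, high minus low R1 cells (log2) in 10 bins of chromosome 8 genes in order along the chromosome, with 1 symbol per library, the mean ± SD of 3 libraries in black, and classes set without the bin read. Right, the number of library values in 190 bins of other chromosomes on the same axis. The dotted line marks the ratio of 3 to 2 copies. All 30 chromosome 8 values lie between 0.30 and 0.61, while the other chromosomes centre on 0.

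Gene by gene, chromosome 8 transcripts were higher in high cells by a like amount. These genes chose the cells and were not tested. Among 406 chromosome 8 genes with a mean of 20 CPM or more, the median log2 ratio was 0.49 (quartiles 0.36 and 0.63), or 1.41-fold. Of them, 400 were above 0 in the mean and 343 (84.5%) were above 0 in each of the 3 libraries. Off the chromosome, 6407 genes of the same level had a median of 0.01, and 936 (14.6%) were above 0 in each library. The gene medians by library were 0.48, 0.45 and 0.50 on chromosome 8 in LIF_2i, rosette_LIM and primed_4d, and −0.002, 0.004 and 0.01 off it.

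**Figure D3:**
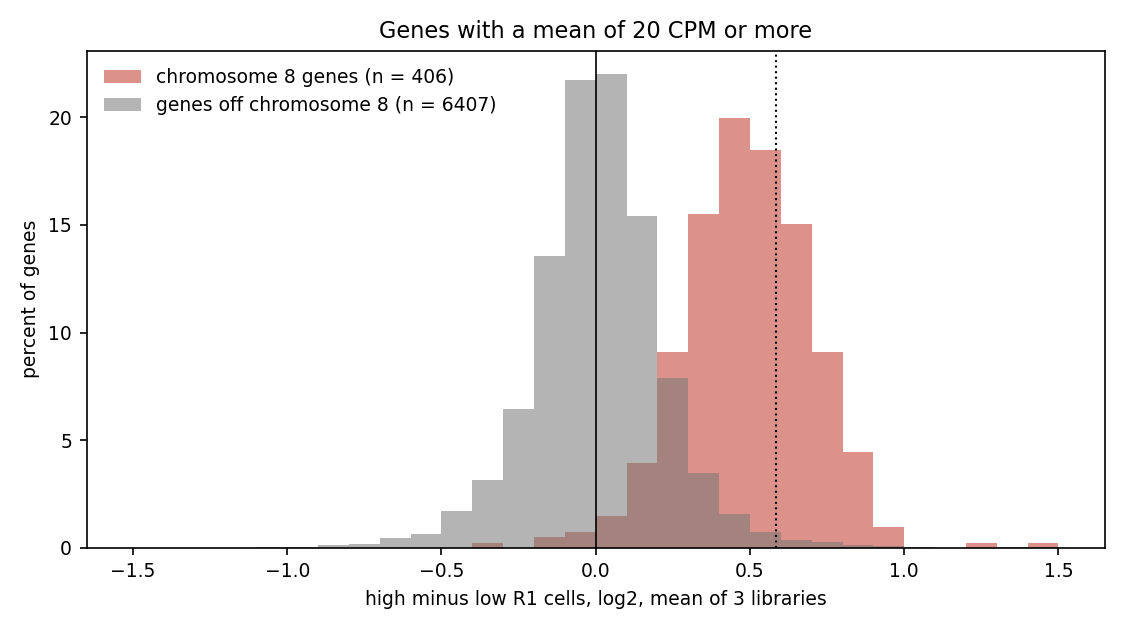
Distribution of the high minus low log2 ratio (mean of 3 R1 libraries) over 406 chromosome 8 genes in red and 6407 other genes in grey, as percent of each set. The chromosome 8 genes centre on 0.49 and the others on 0.01; values beyond 1.5 in either direction are drawn in the outermost bar, and the dotted line marks the ratio of 3 to 2 copies.

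The 10 chromosome 8 genes with the most counts were above 0 in all 3 libraries, with mean ratios from 0.32 to 0.67. They weigh most in the share that set the class, Rpl13 alone with 8.39% of R1 chromosome 8 counts, so their ratios only describe the cells. Rpl13, a protein of the large ribosomal subunit, had 5816 CPM in high and 3808 CPM in low cells of LIF_2i. It had 5677 CPM in high and 3850 CPM in low cells of rosette_LIM, and 6635 CPM in high and 3719 CPM in low cells of primed_4d. The high cells exceeded the low cells in each culture (mean log2 0.67 ± 0.15 SD). Hmgb2, a chromatin protein of dividing cells (0.60 ± 0.08), and Tomm20, the import receptor of the outer mitochondrial membrane (0.57 ± 0.04), did likewise. Eif4ebp1, an inhibitor of cap-dependent translation, had the least of the 10 (0.32 ± 0.12).

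Members of 6 functional lists on chromosome 8 had a median of 0.46 over the 67 of 89 found members that reached 20 CPM. Of these, 66 were above 0 in the mean and 60 in each library. Among all 406 chromosome 8 genes of 20 CPM or more, 343 (84.5%) were above 0 in each library, with a median of 0.49. High counts in the lists are thus no trait of their functions. Every listed gene that reached this level in translation, proteolysis and respiration was above 0 in each library (19 of 19, median 0.46). This list includes Cox4i1, a subunit of cytochrome c oxidase (0.55 ± 0.02), Farsa, a subunit of phenylalanyl-tRNA synthetase (0.46 ± 0.01), and Psmd7, a proteasome lid subunit (0.42 ± 0.19). In cell cycle and replication, 12 of 13 were above 0 in each library (median 0.49). Examples are E2f4, a transcription factor that acts largely as a repressor of cell cycle genes (0.67 ± 0.32), and Mcm5, a subunit of the replicative helicase (0.37 ± 0.17). In chromatin, 12 of 13 were (median 0.45), among them Smarca5, the ISWI remodelling ATPase (0.53 ± 0.23), and Ctcf, the insulator protein (0.33 ± 0.19). In signalling and growth, 8 of 8 were (median 0.66), among them Fgfr1, a receptor for fibroblast growth factors (0.67 ± 0.15).

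Of the pluripotency and adhesion genes on the chromosome, 6 of 6 that reached 20 CPM were above 0 in the mean (median 0.45) and 5 in each library. Zfp42 (Rex1), a marker of the naive state, had 1489 CPM in high and 1109 CPM in low cells of LIF_2i. It had 1748 CPM in high and 1171 CPM in low cells of rosette_LIM, and 148 CPM in high and 135 CPM in low cells of primed_4d. The excess of Zfp42 was thus smallest in primed_4d, where the gene was little expressed (mean log2 0.38 ± 0.23). Triml1, also least expressed in primed_4d, had its largest excess there (41.2 CPM in high and 18.7 CPM in low cells). Klf2, a naive transcription factor, had 379 CPM in high and 316 CPM in low cells of LIF_2i, 424 and 323 CPM in high and low cells of rosette_LIM, and 138 and 139 CPM in high and low cells of primed_4d. It thus had no excess in primed_4d, and its mean ratio, 0.22 ± 0.21, was below the lower quartile of chromosome 8 genes. Cdh1 (E-cadherin) had 0.52 ± 0.28. Triml2, a TRIM family-like gene, had 0.58 ± 0.03.

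The stress, redox and death list was the least uniform, with 8 of 9 members above 0 in the mean and 5 in each library (median 0.36). The metallothionein Mt1 had 589 CPM in high and 487 CPM in low cells of LIF_2i, but 337 CPM in high and 379 CPM in low cells of rosette_LIM, and 329 CPM in high and 361 CPM in low cells of primed_4d. Its mean ratio was −0.01 ± 0.25, and its neighbour Mt2 had 0.14 ± 0.36. Dnajb1, a heat-shock cochaperone, had 0.11 ± 0.25, whereas Gsr, glutathione reductase, had 0.54 ± 0.08 and Prdx2, a peroxiredoxin, 0.52 ± 0.12. Thus Mt1, Mt2 and Dnajb1 lacked a common excess, though their spread between libraries was wide. Other members of the list were above 0 in each library, among them Hmox1 (0.48 ± 0.44) and Calr (0.36 ± 0.23).

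The extremes among chromosome 8 genes varied between libraries. The 5 lowest ratios among genes of 20 CPM or more belonged to Atp11a (−0.31), Cdyl2 (−0.17), Abcb10 (−0.13), Prmt10 (−0.03) and Plcg2 (−0.03). Of Cdyl2, a chromodomain protein gene, there were 81 counts in high and 43 in low cells of primed_4d, while its log2 ratio was above 0 in LIF_2i and rosette_LIM. The 5 highest were Vegfc, Gins3 (1.25), 2610005L07Rik (1.24), Mcph1 (0.94) and Vps4a (0.92). Vegfc, a growth factor for lymphatic vessels, had 97 counts in high and 0 counts in low cells of primed_4d, so its level there was at least 5.44-fold higher against 3 counts over the low cells, a bound that leaves its list's median at 0.66. In rosette_LIM it had 339 counts in high and 26 in low cells, and in LIF_2i 253 and 63 counts in high and low cells.

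Off chromosome 8, few single genes passed a test of high against low cells. edgeR's quasi-likelihood test on the sums per library and class, with library as block, called 6 of 9803 genes at an adjusted p under 0.05 (0.0612% of those tested), of which 4 rose (0.0408%) and 2 fell (0.0204%) in high cells. At an unadjusted p under 0.05 there were 614 (6.26%), of which 268 (2.73%) were higher and 346 (3.53%) lower. The median log2 ratio of all tested genes was 0.003, and the median standard error was 0.20. The calls rest on the LIF_2i library more than on the others: without LIF_2i none of the 6 passed (2 other genes did), without rosette_LIM 5 of them passed among 36, and without primed_4d all 6 passed among 81 (36 higher and 45 lower). All 6 kept their direction in each of these fits. Without the 3 wells of over 100000 counts, 5 of the 6 passed, and 1700013H16Rik did not (edgeR adjusted p = 0.0579). DESeq2 called no gene, with 131 at an unadjusted p under 0.05.

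Fxyd6, which encodes a regulator of the sodium-potassium pump (chr9:45369470-45396159, GRCm38), fell. It had 81.3 CPM in high and 157 CPM in low cells of LIF_2i. It had 80.7 CPM in high and 180 CPM in low cells of rosette_LIM, and 36.2 CPM in high and 48.7 CPM in low cells of primed_4d. High cells were thus lower in each of 3 libraries (log2 −0.95 ± 0.13 SE, edgeR adjusted p = 0.0059). In IB10 the difference was −1.10 ± 0.16 (SE), in libraries that had no part in the R1 test.

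Tuba3a, an alpha-tubulin gene (chr6:125278270-125286081), also fell. There were 74.7 CPM in high and 143 CPM in low cells of LIF_2i, 128 and 191 CPM in high and low cells of rosette_LIM, and 14.2 and 28.1 CPM in high and low cells of primed_4d (−0.78 ± 0.13 SE, edgeR adjusted p = 0.0191). Its near-identical paralog Tuba3b makes the assignment of these counts uncertain. In IB10 its ratio was −0.01 ± 0.16 (SE), while chromosome 6 as a whole was 0.41 higher (log2) in high than in low IB10 cells. The part of that excess in the IB10 value of Tuba3a was not tested.

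Mest, an imprinted gene transcribed from the paternal allele (chr6:30733506-30748466), rose. High cells had 147 CPM and low cells 86.3 CPM in LIF_2i, with 157 against 95.4 CPM in rosette_LIM and 236 against 167 CPM in primed_4d. The increase appeared in each library (0.67 ± 0.11 SE, edgeR adjusted p = 0.0191). Khdc3, an oocyte and early-embryo gene that takes part in genome stability (chr9:73101381-73106631), rose by 0.95 ± 0.18 SE (edgeR adjusted p = 0.0496). It had 97.0 CPM in high and 59.0 CPM in low cells of LIF_2i, 115 and 43.6 CPM in high and low cells of rosette_LIM, and 12.9 and 11.2 CPM in high and low cells of primed_4d. The X-linked gene 1700013H16Rik (chrX:53742901-53757970) rose by 0.96 ± 0.17 SE (edgeR adjusted p = 0.0445), with 164 CPM in high and 81.2 CPM in low cells of LIF_2i. In rosette_LIM it had 17.4 CPM in high and 11.8 CPM in low cells, and in primed_4d 24.6 CPM in high and 11.2 CPM in low cells, where the low cells held only 10 and 6 counts. In IB10 the ratio of 1700013H16Rik was −0.05 ± 0.25, that of Khdc3 0.64 ± 0.17 and that of Mest 1.52 ± 0.11 (SE). Chromosome 6, which carries Mest, was as a whole 0.41 higher (log2) in high IB10 cells, and its part in the Mest value was not tested. Khdc3 and 1700013H16Rik each passed in 10 of 19 settings of the fit.

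Rtp3, which encodes a transmembrane receptor transporter protein (chr9:110984935-110990265), passed the test but did not move one way. It had 375 CPM in high and 130 CPM in low cells of LIF_2i, and 596 CPM in high and 233 CPM in low cells of rosette_LIM. In primed_4d the order was turned, with 47.5 CPM in high and 65.5 CPM in low cells. The fitted log2 ratio was 1.18 ± 0.19 SE (edgeR adjusted p = 0.0191), and the library ratios were 1.52, 1.35 and −0.46. In IB10 it was 0.69 ± 0.18 (SE).

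**Figure D4:**
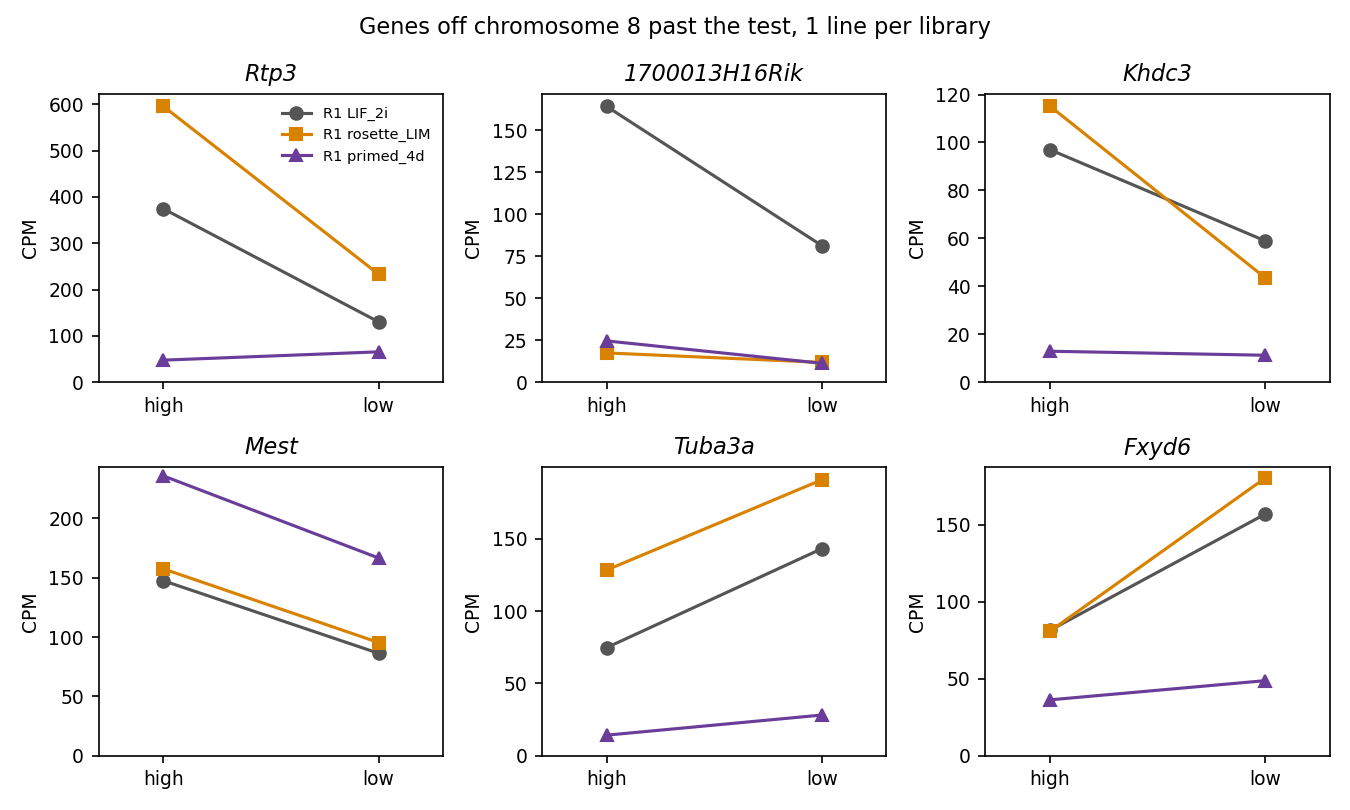
CPM of the 6 genes off chromosome 8 that passed the test, in high (left) and low (right) R1 cells, with 1 line per library. The lines of Khdc3, Mest and 1700013H16Rik are higher in high cells in all 3 libraries, those of Fxyd6 and Tuba3a are lower in all 3, and those of Rtp3 differ in direction, with primed_4d lower in high cells.

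The genes next in order of p that moved one way in all 3 libraries did not pass. Meg3, an imprinted noncoding RNA, had a ratio of 0.68 ± 0.14 (edgeR adjusted p = 0.146), with 1222 CPM in high and 547 CPM in low cells of primed_4d but 233 CPM in high and 217 CPM in low cells of LIF_2i. Crip1, which encodes a small LIM domain protein, had 0.94 ± 0.21 (edgeR adjusted p = 0.186). On the lower side were Neat1, the noncoding RNA that builds paraspeckles (−1.10 ± 0.24, edgeR adjusted p = 0.186), Gm13154 (−0.49 ± 0.10, edgeR adjusted p = 0.0971) and Ccne1, the G1/S cyclin E1 (−0.45 ± 0.10, edgeR adjusted p = 0.186). Errors here are SE of the edgeR fit.

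Of the 35 gene lists off chromosome 8, 33 had no member that passed the test, and with 0.0612% of all tested genes called a list without a call says nothing particular about its members. The others held 1 call each, Mest among 21 tested imprinted genes and Tuba3a among 12 tested germline genes that are sensitive to DNA methylation. In the lists of protein stress, neither the 32 proteasome subunits (median log2 −0.01), the 26 tested cytosolic chaperones and HSF1 targets (0.01) nor the 16 tested genes of the endoplasmic reticulum's unfolded protein response (−0.03) had a call. Their medians were within 0.03 of that over all tested genes. The 20 tested p53 targets had a median of 0.09, and the 21 tested genes of DNA damage and replication stress had −0.01, likewise with no call. The summed level of the p53 targets was 2672 CPM in high and 2708 CPM in low cells of LIF_2i, 2991 and 3075 CPM in high and low cells of rosette_LIM, and 3449 and 2873 CPM in high and low cells of primed_4d.

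Several lists leaned one way without a gene that passed, where 50.6% of all tested genes were above 0. Of 23 tested S phase genes, 20 were below 0, with a median of −0.10. They include Ccne1, Chaf1b, a histone chaperone subunit of replication (−0.50 ± 0.11 SE), and Uhrf1, which couples DNA methylation to replication (−0.28 ± 0.09 SE). Their summed level was 5891 CPM in high and 6482 CPM in low cells of LIF_2i, 5947 and 6203 CPM in high and low cells of rosette_LIM, and 5132 and 5754 CPM in high and low cells of primed_4d. High cells were lower in each library, by 0.06 to 0.17 on the log2 scale. The 22 tested G2/M genes had a median of 0.04, and their sum was higher in high cells of LIF_2i and primed_4d and lower in rosette_LIM.

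Of 21 tested glycolysis genes, 18 were below 0 (median −0.18). Tpi1, triose phosphate isomerase, had −0.39 ± 0.10, and Slc2a3, a neuronal and embryonic glucose transporter, had −0.39 ± 0.10 (SE). The lean was greatest in rosette_LIM, where the list summed to 7347 CPM in high and 9149 CPM in low cells, against 8594 and 8911 CPM in high and low cells of LIF_2i and 11765 and 12454 CPM in high and low cells of primed_4d. All 13 mitochondrially encoded genes were below 0, with a median of −0.12, and the mitochondrial share of counts was a median of 9.28% in high and 9.996% in low cells of LIF_2i. It was 9.51% in high and 10.2% in low cells of rosette_LIM, and 7.72% in high and 8.25% in low cells of primed_4d (exact sign-flip permutation p = 0.25, the smallest possible). No test was made of the lists as wholes.

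Ribosomal protein genes leaned the other way, with 74 of 88 tested above 0 (median 0.09). Their sum was 195139 CPM in high and 162676 CPM in low cells of primed_4d, but 152817 and 149661 CPM in high and low cells of LIF_2i and 163707 and 165200 CPM in high and low cells of rosette_LIM. The lean thus came mainly from primed_4d, where only 12 cells were low. Pluripotency lists showed no common shift: medians were 0.02 over 21 tested naive genes, −0.02 over 18 tested formative and primed genes, and −0.02 over 14 core genes. The summed naive genes were lower in high cells of LIF_2i (9400 against 10517 CPM) and rosette_LIM (9964 against 10900 CPM) and higher in high cells of primed_4d (5895 against 5127 CPM).

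One low cell of primed_4d stood apart and bore on the imprinted list. It had a log2 chromosome 8 share of −1.25, and 6 genes held 53.9% of its counts, of which Kcnq1ot1, an imprinted antisense RNA, held 18.3%. The imprinted list summed to 4677 CPM in high and 10004 CPM in low cells of primed_4d, a log2 ratio of −1.10. Without that cell and the 1 cell over 0.4 the ratio was 0.08. The same 6 genes passed the test of genes off chromosome 8 when these 2 cells were left out.

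No other whole chromosome passed a test of its share. limma on the log2 share of each of 20 other chromosomes found none at an adjusted p under 0.05 and none at an unadjusted p under 0.05 (fitted ratios −0.06 to 0.05, lowest limma adjusted p = 0.917). For chromosome 6 the library values were −0.001, 0.01 and 0.005 in LIF_2i, rosette_LIM and primed_4d. A chromosome 6 share over 0.3 (log2) was found in 3 of 344 high and 0 of 83 low R1 cells (0 cells allow a share of up to 3.61%), against 75 of 94 high and 4 of 384 low IB10 cells.

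Chromosome 10 gave 0.14 in rosette_LIM, −0.002 in LIF_2i and 0.02 in primed_4d. The rosette_LIM value came from the distal part of the chromosome, chosen after these values were seen: 298 genes in the last 4 of 12 bins in gene order, chr10:86778992-130497379 (GRCm38), from Nt5dc3 onward. Against the median low cell of its library, 86 of 144 high and 1 of 28 low cells of rosette_LIM had a distal share over 0.25 (log2). In LIF_2i this was 1 of 114 high and 0 of 43 low cells, and in primed_4d 1 of 86 high and 0 of 12 low cells, where 0 cells allow a share of up to 6.98% in LIF_2i and 25% in primed_4d. The rosette_LIM high cells formed separate groups, with only 1 cell between 0.2 and 0.3.

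Reading genes that did not set this split gave the same picture. When the odd distal genes divided the rosette_LIM high cells into 81 over 0.25 and 63 not over it, the even distal genes differed by 0.43 between these groups and by 0.04 between the 63 cells and the low cells. The 600 genes of the proximal part differed by 0.002, and chromosome 8 by −0.01. Most rosette_LIM high cells thus had a distal chromosome 10 excess, and their chromosome 8 level was within 0.01 of that of the remaining high cells. When the cells over 0.25 were left out of rosette_LIM, the same 6 genes off chromosome 8 passed. With 1 library per culture, the culture, its higher passage number and this subset cannot be told apart.

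**Figure D5:**
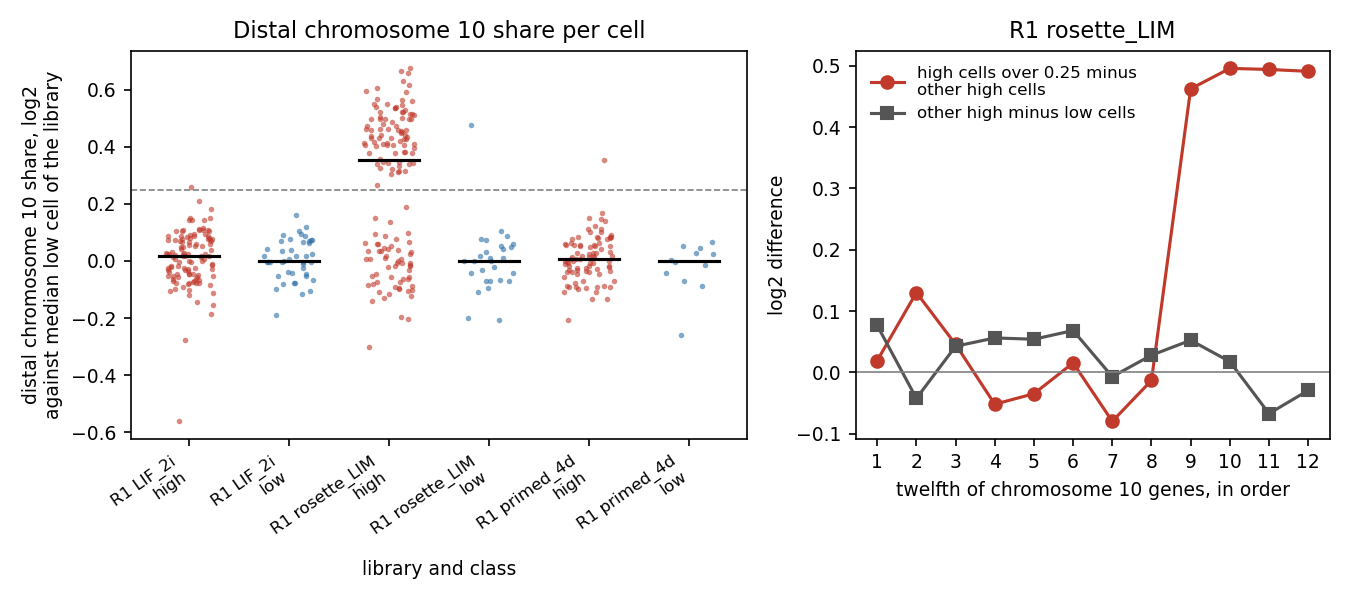
Left, share of the distal chromosome 10 genes in each R1 cell (log2 against the median low cell of its library) by library and class, with medians as black bars and 0.25 dashed. Right, rosette_LIM cells in 12 bins of chromosome 10 genes in order, with the high cells over 0.25 minus the other high cells in red and the other high minus the low cells in grey; bins 9 to 12 set the split. The red line lies between −0.08 and 0.13 in bins 1 to 8 and between 0.46 and 0.50 in bins 9 to 12.

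The IB10 line offered a second set of high and low cells, in which 75 of 94 high cells also had a chromosome 6 share over 0.3. High IB10 cells also had a lower median count in each library, at 39743 against 42632 in low cells of LIF_2i, 29326 against 34800 in rosette_LIM and 25407 against 35237 in primed_4d. Their median ERCC share was higher in each library, with 2.03% in high against 1.20% in low cells of primed_4d, and the part of depth in the IB10 values was not tested. The IB10 cells gave 373 calls of 9680 genes (3.85%), of which 142 were on chromosome 6. Of the 229 calls off chromosome 6 that were also tested in R1, 168 (73.4%) had the same direction in R1, whose libraries are separate. The same share over all genes tested in both lines is not given here, so 73.4% has no base to be set against. A test of the difference between the lines, the class by line term over all 6 libraries, called 11 of 9649 genes (0.114%), 6 of them on chromosome 6.

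Fitting 1 class effect over the 6 libraries of both lines, a choice made after the data were seen, called 89 of 9649 genes (0.922%), 47 higher (0.487%) and 42 lower (0.435%) in high cells. Of these, 65 were off chromosome 6, 24 higher and 41 lower in high cells. Since 1 common effect chose these genes, their direction in the single lines is no separate result. Fxyd6 had the lowest p (−1.01 ± 0.10 SE, edgeR adjusted p = 1.7e-05). Gm13154 fell by 0.57 and Rbmxl2, a germ-cell RNA-binding protein gene, by 0.60 on the log2 scale. Krt8, a keratin of simple epithelia, rose by 2.04 ± 0.33 SE (edgeR adjusted p = 0.00399), with 1.68 in R1 and 2.18 in IB10. In R1 it had 17.4 CPM in high and 1.44 CPM (2 counts) in low cells of LIF_2i, 14.9 and 4.71 CPM in high and low cells of rosette_LIM, and 14.8 and 13.1 CPM in high and low cells of primed_4d.

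Among the other genes of lowest p were Me1, malic enzyme (0.64 ± 0.10 SE), Mdk, the growth factor midkine (0.37 ± 0.06 SE), and Npr3, a natriuretic peptide receptor (1.35 ± 0.22 SE), all higher in high cells. Mdk had 523 CPM in high and 399 CPM in low cells of LIF_2i, 718 and 544 CPM in high and low cells of rosette_LIM, and 1220 and 1071 CPM in high and low cells of primed_4d of R1. Of the 6 R1 calls, 4 remained among the 89. The part of chromosome 6 in these values was not tested beyond leaving its own genes out.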

How the data were processed

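The authors deposited expected counts for each gene in each well. All 1297 distinct values equal, to within 0.005, the molecules expected from whole numbers of 4096 UMIs, so they are corrected for UMI collisions and not scaled. The submitters' processing notes name BWA and mm10/GRCm38; versions and annotation are not given in these sources. All 1128 columns matched a library, with 188 wells each. ERCC rows, mitochondrial rows and Rn45s stayed out of library sizes.

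Members and gene lists were chosen with earlier results of these data known. Cells are not replicates, so values were summed per library and class and rounded. The 6 sums held 545899 to 4275340 nuclear counts off chromosome 8. edgeR 4.0.16 (R 4.3.3, TMM factors from genes off chromosome 8, filterByExpr with a minimum count of 10) tested them two-sided with Benjamini-Hochberg adjustment and library as block, since both sums of a library share 1 culture and 1 set of wells. limma 3.58.1 tested chromosome shares, and DESeq2 1.42.0, limma-voom, other scalings, filters and cell sets were alternatives. Nothing in the labels says that cultures were replicated, so p-values rest on the spread between single cultures, which also differ in condition. SE derive from edgeR's F. Ratios per library add 0.5 CPM. No doublet caller was run on sorted wells. Named genes off chromosome 8 were the largest passing rises and falls of one direction in all 3 libraries with 10 CPM or more, filled by p to 5 per direction; on the chromosome, the 10 with the most counts, the 5 highest and 5 lowest ratios of 20 CPM or more and list members. Rtp3 and the genes of the fit over both lines were named after their values were seen. Code was tested on simulated data. Coordinates are GRCm38 from RefSeq, matched by symbol or synonym. Some items are not reported here.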

Additional observations from a re-analysis of the deposited data

Results flagged for a closer look

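The class effect differed between the lines for 11 genes by the class by line term of edgeR (adjusted p under 0.05; values are the R1 effect minus the IB10 effect on the log2 scale). On chromosome 6 these were Mkrn1 (−0.67), Strap (−0.69), Rpn1 (−0.71), Cd9 (−0.73), Slc25a13 (−0.83) and Mest (−0.86). For Mest the effect was 0.67 in R1 and 1.52 in IB10, so it rose in both lines. Mkrn1, a ubiquitin ligase gene, had 0.04 in R1 and 0.70 in IB10. Off chromosome 6 they were Tagln2, an actin-binding protein gene (−1.24, with 0.02 in R1 and 1.26 in IB10), Actg1, gamma actin (0.52, with 0.04 in R1 and −0.48 in IB10), and Pou3f1, a factor of the primed state (1.27, with 0.06 in R1 and −1.21 in IB10). Pim2, an X-linked kinase gene, had a difference of 1.63 (−0.18 in R1 and −1.81 in IB10), and Dusp27, an atypical phosphatase gene, 1.41 (0.18 in R1 and −1.23 in IB10). Most high IB10 cells also had a higher chromosome 6 share, and the part of that share in these differences was not tested. With cells near the cut left out, 3 genes passed.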

How the results depend on the processing

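The count of genes off chromosome 8 that passed was 6 and moved with several settings. It was 3 with no rescaling beyond the library total, 0 with DESeq2, 30 with no filter on low counts (of 16362 tested), 1 with cells within 0.1 of the cut left out, 21 with chromosome 8 rows kept in totals and scaling, and 89 over both lines. With no replicate block it was 0, with 55 at an unadjusted p under 0.05. Leaving out 1 library each gave 2 to 81. All 6 genes kept their direction under each of the 18 other settings of the R1 fit, and Fxyd6 passed in 16 of 19 settings. In the test of the lines against each other 3 genes passed, in place of 11, with cells near the cut left out. Against the mean of the 3 R1 library shares, 65.7% of rosette_LIM cells were high. No chromosome share passed under any setting run, and the unused part of chromosome 8 stayed within 1 SD. The causes were not tested. The 12 low cells of primed_4d limit its precision.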
